A study of Mus musculus with 2 samples.

Results

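Lambda light chain B cells of the mouse heart were examined in 2 droplet libraries, 1 per age. A droplet was taken as a B cell when it held at least 2000 gene UMIs (unique molecular identifiers, each marking 1 captured mRNA molecule), at most 10% mitochondrial UMIs, at least 1 UMI of Cd79a, which encodes a signalling chain of the B cell receptor, and at least 5 UMIs over the light chain constant genes Igkc, Iglc1, Iglc2 and Iglc3. These B cells were selected on their own light chain counts: a cell was called lambda when its Iglc1, Iglc2 and Iglc3 UMIs together outnumbered its Igkc UMIs. There were 614 lambda cells among 5682 B cells, 326 of 2072 neonatal and 288 of 3610 adult B cells. Another 1743 neonatal and 3320 adult cells had more Igkc (kappa cells), and 3 and 2 cells had equal counts.

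The neonatal library came from wild-type C57BL6/J mice of both sexes at 2 weeks of age (15 days in the sample title), and the adult library from male wild-type C57BL6/J mice at 8 weeks. Hearts of 6 mice made up each library, handled as pools, and live B cells of both ages were sorted on 1 day after an identical digestion. Gene UMIs totalled 26866958 for the neonatal and 49500780 for the adult library. With 1 library per age there is no replicate and no test, and age cannot be told apart from library. Nor can it be told apart from the difference in sex, except where values for male cells alone are given. Each interval given is an exact 95% interval that covers counting error only. The intervals treat UMIs or cells as independent and so understate the spread, since UMIs of 1 cell share their source.

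An antibody pairs a heavy chain with 1 of 2 kinds of light chain, kappa or lambda, each made from its own locus, where a variable and a joining segment are recombined and the constant segment is added by RNA splicing. In the mouse most B cells use kappa, and a developing B cell usually rearranges its kappa locus before its lambda locus, which is small and has few variable genes. A cell that rearranges again after a first light chain has failed or has made a self-reactive receptor is said to edit its receptor, and editing is a known route to lambda use.

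The constant genes are what the rule counted, and their similarity sets how far UMIs can be assigned between them. In the GENCODE M21 annotation of GRCm38 (mm10), Igkc lies on chromosome 6 from 70726435 to 70726966 on the plus strand. The lambda genes lie on the minus strand of chromosome 16, Iglc1 from 19061618 to 19062071, Iglc3 from 19065230 to 19065681 and Iglc2 from 19198396 to 19200351. For each lambda gene, 90 bases from near the start of the annotated coding exon are shown because they carry many of the differences that let a read be assigned, with capitals at positions where the genes are not all alike.
Iglc1: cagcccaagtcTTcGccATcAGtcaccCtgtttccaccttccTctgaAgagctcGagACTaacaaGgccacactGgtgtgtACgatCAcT
Iglc2: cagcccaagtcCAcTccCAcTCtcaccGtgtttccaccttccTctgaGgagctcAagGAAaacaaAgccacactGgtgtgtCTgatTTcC
Iglc3: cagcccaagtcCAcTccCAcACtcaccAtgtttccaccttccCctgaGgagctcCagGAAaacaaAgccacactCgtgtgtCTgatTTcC

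Within these stretches Iglc1 differed from Iglc2 at 19 bases and Iglc3 from Iglc2 at 5 bases. Over the aligned coding sequence, Iglc2 and Iglc3 were identical at 304 of 315 positions (96.5%), while Iglc1 matched Iglc2 at 73.7% and Iglc3 at 74.6%. Counts of Iglc2 and Iglc3 may therefore exchange reads, which was not tested, and their split is uncertain. The printed stretches span chr16:19061980-19062069 for Iglc1, chr16:19198761-19198850 for Iglc2 and chr16:19065590-19065679 for Iglc3. The variable genes Iglv1 and Iglv2 were closer still, identical at 287 of 294 bases (97.6%), and the 90 bases with most differences are given with the differing bases in capitals.
Iglv1: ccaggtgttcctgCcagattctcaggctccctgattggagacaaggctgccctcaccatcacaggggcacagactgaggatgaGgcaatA
Iglv2: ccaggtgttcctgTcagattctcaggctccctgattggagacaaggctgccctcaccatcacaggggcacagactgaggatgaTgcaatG

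These lie at chr16:19085050-19085139 (Iglv1) and chr16:19260434-19260523 (Iglv2), also on the minus strand.

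The lambda percentage of the light chain UMIs was distributed as a broad kappa hump with a tail across the 50% cut, a low stretch between 60 and 80%, and a separate peak above 90%. The peak held 153 neonatal and 150 adult cells. Near the cut the distribution was continuous: 120 neonatal and 119 adult cells lay from 40% to just under 50%, and 71 and 47 lay above 50% up to 60%. The lowest lambda cell stood at 50.4% at 2 weeks and 50.5% at 8 weeks, and the highest kappa cell at 49.5% and 49.7%. The class is therefore a range of a ratio with no gap at the cut. A stricter set with at least 4 times as many lambda as Igkc UMIs, called lambda-dominant here, held 195 neonatal and 190 adult cells, and most results below are given for it as well.

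**Figure D1:**
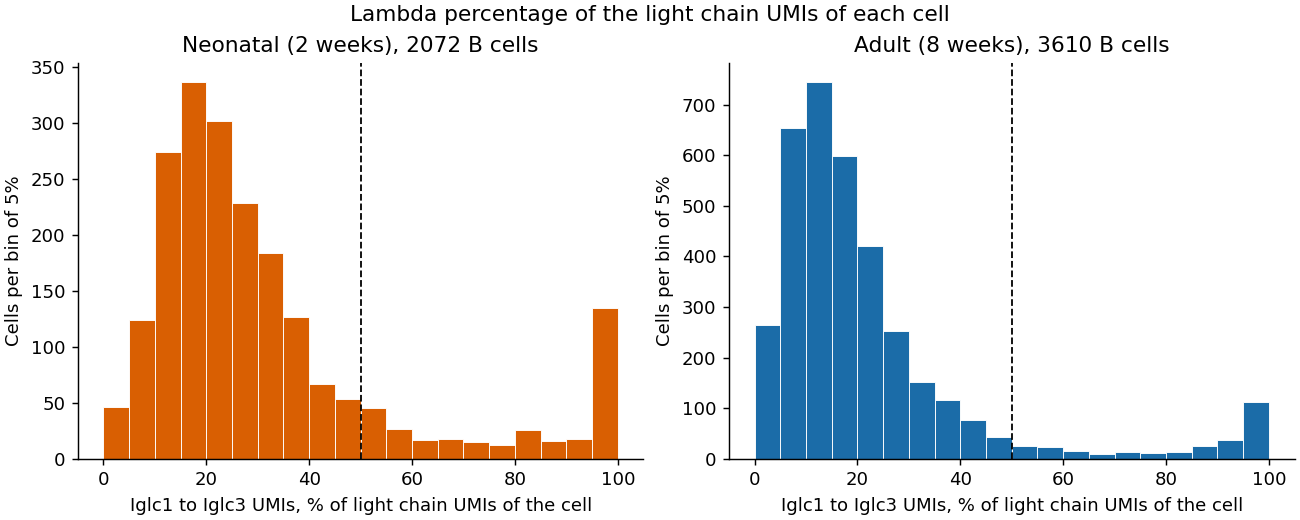
Number of B cells (y axis) by the percentage of their light chain UMIs that came from Iglc1, Iglc2 and Iglc3 (x axis, bins of 5%), for the neonatal (left, 2072 cells) and adult (right, 3610 cells) library. The dashed line marks the 50% cut, which crosses the tail of the kappa hump, and the peak at the right end holds 153 neonatal and 150 adult cells above 90%.

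The 2 kinds of lambda cell differed in depth. Lambda-dominant cells had a median of 5065 UMIs at 2 weeks and 5897 at 8 weeks. The 131 neonatal and 98 adult lambda cells below the factor of 4 had medians of 8258 and 11703 UMIs. Kappa cells had medians of 6021 and 6045.5 UMIs. The sort excluded doublets and none were removed here, and the part of doublets in the deeper cells with both light chains was not tested.

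Lambda cells carried B cell markers that the rule did not use. Levels are given as CPM, the UMIs of a gene divided by all UMIs of the cells and scaled to 1000000. Cd79b, the partner of Cd79a, stood at 1940 CPM in neonatal and 1365 CPM in adult lambda cells, and Ms4a1, which encodes CD20, at 1360 and 1247 CPM. Markers of other cell types were scarce in lambda cells. The 8 macrophage markers summed to 31.8 CPM in neonatal and 7.23 CPM in adult lambda cells, against 61.5 and 18.2 CPM in kappa cells. In lambda cells they were led by Lyz2 and Cd68, with 2 and 6 of the 8 at 0. Leaving out cells with markers of other cell types gave lambda shares of 15.8% at 2 weeks and 8.03% at 8 weeks. The part of macrophage markers alone was not tested. The 8 T cell markers summed to 7.29 and 9.40 CPM (5 and 2 at 0, led by Trac and Trbc2), against 7.22 and 12.8 CPM in kappa cells. The 6 natural killer cell markers summed to 2.30 and 1.81 CPM (5 and 4 at 0, led by Prf1), against 3.35 and 6.16 CPM. The 5 red blood cell markers summed to 7.29 and 9.04 CPM (2 and 4 at 0, led by Hbb-bt), against 7.73 and 4.62 CPM, so they were higher in adult lambda than in adult kappa cells. The 5 fibroblast markers held 1 and 2 UMIs and the 5 cardiomyocyte markers 0 and 8 UMIs. The 6 endothelial markers reached 130 and 100.9 CPM, against 141 and 119 CPM in kappa cells. In lambda cells Pecam1 gave 334 of 340 and 277 of 279 of their UMIs, with 3 and 4 of the others at 0. No cell barcode was called lambda in both libraries, although 10 neonatal and 1 adult lambda cells had a barcode with at least 500 UMIs in the other library.

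The share of lambda cells was 15.7% (interval 14.2 to 17.4%) at 2 weeks and 7.98% (7.11 to 8.91%) at 8 weeks. This is 5.35 kappa cells per lambda cell at 2 weeks and 11.5 at 8 weeks. Lambda-dominant cells made up 9.41% and 5.26% of the B cells. Thinning every cell to 2000 UMIs before it was classed, an alternative added after the data were seen, gave 16.0% and 8.62%. With cells limited to those with a Y-linked UMI and no Xist UMI, so that both libraries were male, the shares were 16.2% and 8.09%. The neonatal share lay above the adult one in these 4 versions.

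What the rule used is shown by the constant genes themselves, as a description. Iglc1 stood at 5867 CPM in neonatal lambda cells and 899 CPM in neonatal kappa cells, and at 5756 and 505 CPM in the adult library. Iglc2 stood at 3607 against 1221 CPM and at 4069 against 1105 CPM. Iglc3 differed least, with 1329 against 784 CPM at 2 weeks and 1146 against 585 CPM at 8 weeks. Igkc was 2724 CPM in neonatal and 2756 CPM in adult lambda cells, against 11217 and 10624 CPM in kappa cells. Summed over the 5 constant genes with Iglc4, the light chain level was similar between the classes, 13531 against 14121 CPM at 2 weeks and 13732 against 12821 CPM at 8 weeks.

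As a level, the lambda constant genes stood lower in kappa cells than in near-empty droplets, those at ranks 45000 to 90000 by UMIs. Near-empty droplets held 1889 CPM of Iglc1, 1915 CPM of Iglc2 and 978 CPM of Iglc3 at 2 weeks, and 999, 1428 and 645 CPM at 8 weeks, each above the kappa cell level just given. Counted per droplet, kappa cells had a median of 18 UMIs over the 3 genes at 2 weeks and 11 at 8 weeks, and near-empty droplets averaged 0.106, 0.107 and 0.0547 UMIs of Iglc1, Iglc2 and Iglc3 at 2 weeks and 0.0919, 0.131 and 0.0593 at 8 weeks. The mix of genes also differed from those droplets: in adult kappa cells Iglc1, Iglc2 and Iglc3 gave 16076, 35183 and 18614 UMIs, and in adult near-empty droplets 4137, 5914 and 2669 UMIs. In the other direction, cells above 90% lambda had 277 CPM of Igkc at 2 weeks and 604 CPM at 8 weeks, below the 8946 and 9823 CPM of near-empty droplets. The mean Igkc and the mean summed lambda UMIs of a near-empty droplet were also subtracted from each cell before it was classed. This gave lambda shares of 15.8% and 8.03%, set against 15.7% and 7.98% without it. The Igkc mean was only 0.5001 and 0.904 UMIs, so only cells close to the cut could change class. The shares therefore cannot show how much free RNA the cells held. No Igkc UMI was found in 47 neonatal and 29 adult lambda cells, while 5 and 27 kappa cells lacked all 3 lambda constant genes.

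The kappa variable genes (Igkv) were lower in lambda cells. They were not counted by the rule but share transcripts with Igkc, so their level is not independent of it. Their summed level was 45.7 CPM (37.8 to 54.6) in neonatal lambda cells and 96.1 CPM (91.0 to 101.4) in neonatal kappa cells. In the adult library it was 39.8 CPM (32.7 to 47.9) against 85.4 CPM (82.2 to 88.7). Lambda-dominant cells were lower again in the adult library, at 22.9 CPM (15.7 to 32.3), and stood at 39.7 CPM (29.6 to 52.0) in the neonatal library. Near-empty droplets stood between the classes, at 67.2 and 74.1 CPM. The libraries were read from the 3′ end of the transcript, where the constant gene lies, and variable genes had few UMIs.

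The lambda variable genes, also not counted by the rule but on the same transcripts as the lambda constant genes, were higher in lambda cells for 2 of the 3. Iglv1 stood at 43.4 CPM (35.7 to 52.1) in neonatal lambda cells and 8.53 CPM (7.05 to 10.2) in kappa cells, and at 40.5 CPM (33.4 to 48.7) against 14.9 CPM (13.5 to 16.3) in the adult library. Iglv2 gave 24 UMIs in the 326 neonatal lambda cells and 3 UMIs in the 1743 kappa cells. In the adult library it gave 13 UMIs in 288 lambda and 12 in 3320 kappa cells, or 4.70 CPM (2.50 to 8.04) against 0.377 CPM (0.195 to 0.658). Iglv3 had overlapping intervals in both libraries, with 12.7 CPM (8.72 to 17.8) against 9.11 CPM (7.59 to 10.9) at 2 weeks and 7.96 CPM (4.99 to 12.05) against 11.6 CPM (10.5 to 12.9) at 8 weeks. Lambda-dominant cells were also set against cells with at least 4 times as much Igkc. Iglv3 was then at 15.3 against 7.26 CPM at 2 weeks, a log2 ratio of 1.07 (0.23 to 1.86). At 8 weeks it was at 8.58 against 11.8 CPM, or -0.45 (-1.43 to 0.38). The Iglv1 and Iglv3 levels of kappa cells were close to those of near-empty droplets, at 11.5 and 8.35 CPM at 2 weeks and 14.5 and 12.6 CPM at 8 weeks. The 5 lambda joining genes were at 0 in lambda cells.

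Lambda cells were split by the constant gene with most UMIs. Iglc1 led in 178 neonatal cells (54.6%, 49.0 to 60.1%) and 147 adult cells (51.0%, 45.1 to 57.0%). Iglc2 led in 115 (35.3%, 30.1 to 40.7%) and 118 cells (41.0%, 35.2 to 46.9%), and Iglc3 in 29 (8.90%, 6.04 to 12.5%) and 21 cells (7.29%, 4.57 to 10.9%). Ties left 4 and 2 cells unassigned. The leading gene made up a median of 82.8% of the lambda UMIs in neonatal and 85.8% in adult Iglc1-led cells, and 67.3% and 78.3% in Iglc2-led cells. The order of the 3 genes was thus the same at both ages, and the intervals of each share overlapped between the ages.

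The share of Iglv1 differed between cells led by Iglc1 and cells led by Iglc2. In Iglc1-led cells Iglv1 gave 96 of 126 Iglv UMIs in the neonatal (76.2%, 67.8 to 83.3%) and 84 of 100 in the adult library (84.0%, 75.3 to 90.6%). In Iglc2-led cells it gave 12 of 38 (31.6%, 17.5 to 48.7%) and 21 of 38 (55.3%, 38.3 to 71.4%). The intervals of Iglc1-led and Iglc2-led cells did not overlap within either library. In kappa cells Iglv1 gave 117 of 245 (47.8%, 41.4 to 54.2%) and 473 of 855 (55.3%, 51.9 to 58.7%). As a level, Iglv1 stood at 72.3 CPM (58.5 to 88.3) in neonatal Iglc1-led cells and 11.6 CPM (6.01 to 20.3) in Iglc2-led cells, and at 67.0 CPM (53.5 to 83.0) and 16.9 CPM (10.4 to 25.8) in adult cells. Near-empty droplets held 11.5 and 14.5 CPM of Iglv1, close to the Iglc2-led levels. The share in Iglc2-led cells therefore cannot be read as their own variable gene use. Exchange of reads between Iglv1 and Iglv2 was not tested. Iglv2 was at 13.6 CPM (7.42 to 22.8) in neonatal Iglc2-led cells and 7.53 CPM (3.61 to 13.8) in Iglc1-led cells, with intervals that overlap. Iglv1 lies between Iglc1 and Iglc2 on the chromosome, from 19085017 to 19085500, and Iglv2 beyond Iglc2, from 19260401 to 19260859. Since Iglc3-led cells gave only 6 and 9 Iglv UMIs, their variable genes could not be compared at this depth, and 0 Iglv2 UMIs in them allow up to 17.0 and 14.8 CPM (exact Poisson limits).

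**Figure D2:**
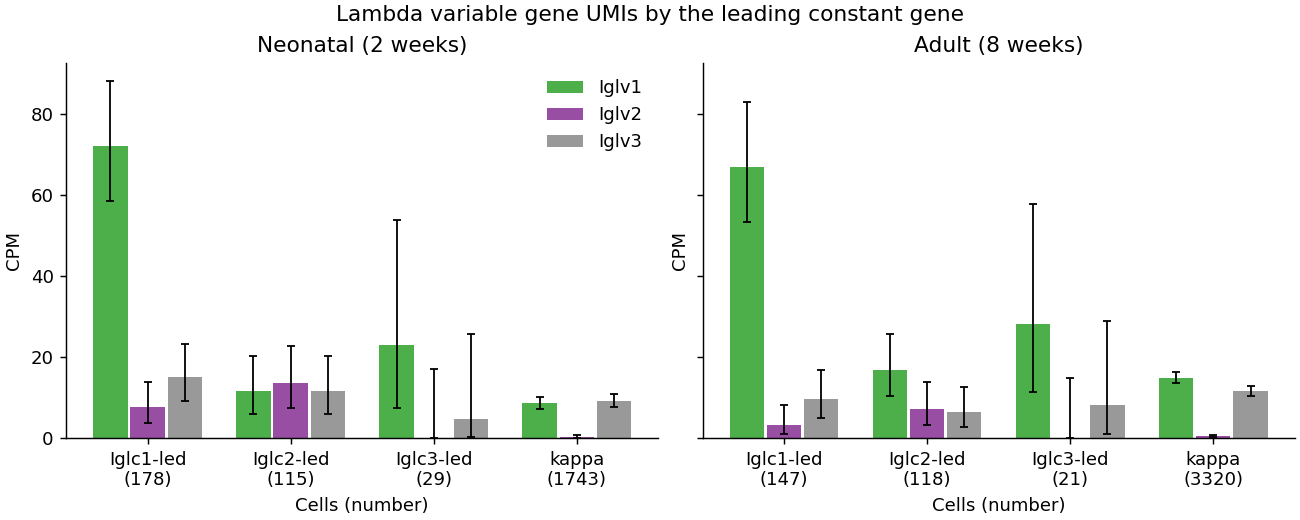
Level of Iglv1, Iglv2 and Iglv3 (y axis, CPM, with exact 95% Poisson intervals) in lambda cells led by Iglc1, Iglc2 or Iglc3 and in kappa cells (x axis, number of cells in parentheses). Iglv1 stood at 72.3 and 67.0 CPM in Iglc1-led cells, above its level in Iglc2-led and kappa cells at both ages.

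Lambda cells were then placed by genes of B cell maturation, with each cell thinned to 2000 UMIs. The first stratum held cells with at least 3 UMIs of 10 B1 cell genes (Cd5, Cd9, Spn, Itgam, Zbtb32, Bhlhe41, S100a6, Ahnak, Plac8 and Ctla4). The second held other cells with a UMI of Cr2 or Fcer2a, which encode the mature B cell proteins CD21 and CD23, the third other cells with Vpreb3, a gene of immature B cells, and the last the rest. These are ranges of a count, not cell types. The first stratum rests mostly on Plac8, S100a6 and Ahnak. Before thinning they gave 3453, 1994 and 898 of the 6782 neonatal lambda UMIs of the 10 genes. In the adult library they gave 2932, 2381 and 564 of 6416. Cd5, Spn and Itgam gave 19, 21 and 15 neonatal and 11, 30 and 26 adult lambda UMIs. Plac8 was found in 88.9% of neonatal and 71.5% of adult kappa cells. The lambda share in the neonatal library was 15.7% (13.3 to 18.3%) of 836 cells with B1 cell genes, 12.9% (9.79 to 16.5%) of 412 with Cr2 or Fcer2a, 18.7% (15.1 to 22.6%) of 445 with Vpreb3 only, and 15.6% (12.1 to 19.6%) of the 379 others. In the adult library the order was another, with 11.8% (9.86 to 13.9%) of 1038, 5.74% (4.62 to 7.05%) of 1497, 6.35% (4.07 to 9.38%) of 362 and 7.99% (6.11 to 10.2%) of 713 cells. With the first stratum set at 5 UMIs, the neonatal order turned, with 18.4% (14.9 to 22.4%) for B1 cell genes and 17.7% (14.8 to 21.03%) for Vpreb3 only, so that B1 cell genes then had the highest share in both libraries (12.9% in the adult one). With 3 UMIs, cells with B1 cell genes were 42.4% of the adult lambda cells and 27.6% of the adult kappa cells, but 40.2% and 40.3% in the neonatal library.

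Neonatal strata stood further apart in lambda-dominant than in all lambda cells. Lambda-dominant cells were 13.9% (10.9 to 17.5%) of the neonatal cells with Vpreb3 only, 7.66% (5.95 to 9.67%) of those with B1 cell genes and 7.77% (5.37 to 10.8%) of those with Cr2 or Fcer2a. In the adult library they were 7.42% (5.90 to 9.18%) of cells with B1 cell genes, 3.94% (3.01 to 5.05%) of those with Cr2 or Fcer2a and 3.31% (1.72 to 5.72%) of those with Vpreb3 only. The difference between the ages in this order was not tested, since each age is 1 library. Depth differed between the strata as well, with medians of 7123.5 UMIs for neonatal cells with B1 cell genes and 5132 for those with Vpreb3 only, and of 11544.5 against 4903 UMIs for adult cells with B1 cell genes and with Cr2 or Fcer2a. The cells of each library were therefore also put in 4 bins of about equal cell number by UMIs. The adult lambda-dominant share was higher with B1 cell genes than with Cr2 or Fcer2a in 4 of 4 bins, at 14.5, 8.51, 9.17 and 5.33% against 5.25, 3.56, 4.07 and 1.5% from the lowest bin up. The neonatal difference between Vpreb3 only and B1 cell genes lay in the lower 2 bins, with 22.2 and 11.9% against 13.5 and 4.19%, and was turned around in the upper 2, with 3.37 and 6.12% against 6.63 and 7.65%.

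The neonatal share also moved with depth itself. Lambda cells were 23.7% (20.1 to 27.7%) of the neonatal bin with fewest UMIs (2045 to 4957), 10.1% and 9.06% of the middle bins, and 20.1% (16.7 to 23.8%) of the bin with most UMIs (8202 to 117407). The 2 ends held different cells: lambda-dominant cells were 17.8% (14.6 to 21.3%) of the lowest bin and 7.14% (5.08 to 9.71%) of the highest, while lambda cells below the factor of 4 were 5.98% and 12.9%. In the lowest bin the lambda-dominant share was 13.5% with B1 cell genes, 15.5% with Cr2 or Fcer2a, 22.2% with Vpreb3 only and 17.2% in the rest. Among adult cells the lambda share was 8.19, 5.55, 8.53 and 9.63% from the lowest to the highest bin.

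**Figure D3:**
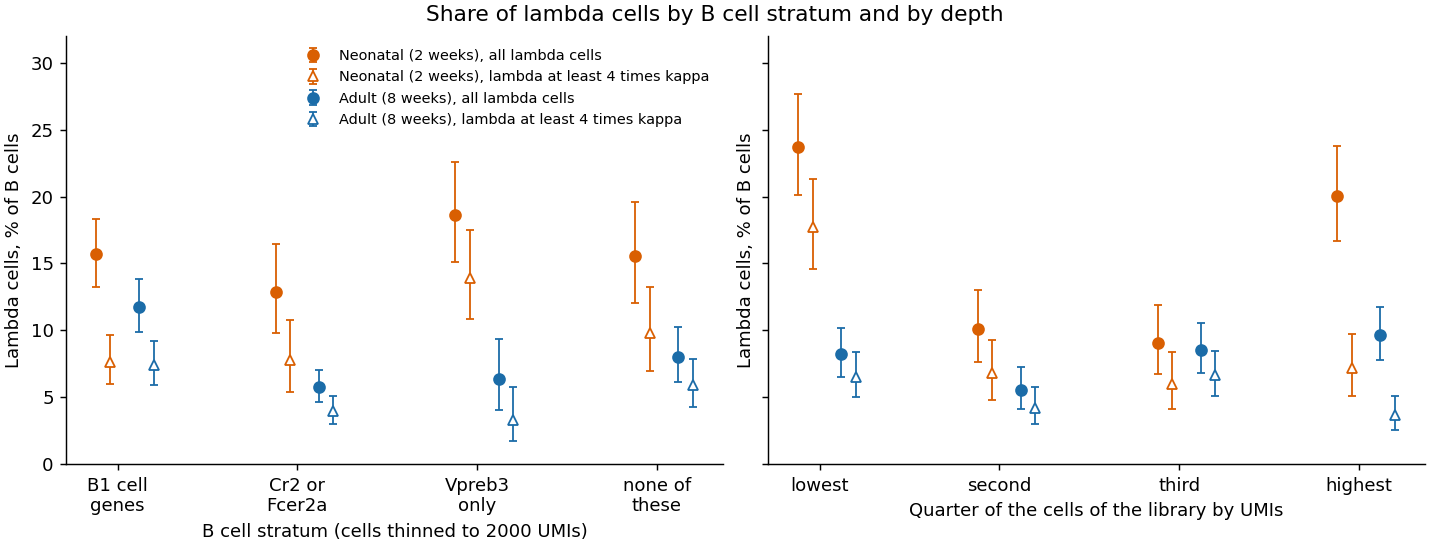
Lambda cells as a percentage of the B cells (y axis) in the 4 strata (left) and in the 4 bins of the cells of each library by UMIs (right), with exact 95% binomial intervals. Filled circles are all lambda cells and open triangles lambda-dominant cells. The lowest neonatal bin holds 23.7% lambda cells, and adult cells with B1 cell genes stand at 11.8% against 5.74% for those with Cr2 or Fcer2a.

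Across other genes, few differed past a fixed fold between lambda and kappa cells of the same library. For each class and library, UMIs were added up per gene and scaled by the class total. Such sums weight deep cells more. The 131 neonatal and 98 adult lambda cells below the factor of 4 gave 1294707 of 2606088 and 1366669 of 2764969 lambda UMIs. The 2341 genes with at least 50 CPM over both classes in both libraries were compared, leaving aside the light chain genes, Cd79a, Xist and Y-linked genes. A gene was past the fold when its log2 ratio of lambda over kappa was at least 0.5 in size and its exact conditional interval left out 0. Between neonatal cells 10 genes were past the fold upwards (0.427%) and 5 downwards (0.214%), and between adult cells 1 (0.0427%) and 9 (0.384%). No gene was past it upwards in both libraries (0%), and 1 was downwards in both (0.0427%). The median log2 ratio of all genes compared was 0.01 at 2 weeks and -0.05 at 8 weeks, and 90% of the genes lay between -0.23 and 0.22 and between -0.28 and 0.15. Lambda-dominant cells set against cells with at least 4 times as much Igkc gave 13 genes upwards (0.555%) and 30 downwards (1.28%) at 2 weeks, 7 (0.299%) and 47 (2.01%) at 8 weeks, and 1 (0.0427%) and 4 (0.171%) in both.

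The gene downwards in both was Gm30211 (ENSMUSG00000105646), a long intergenic noncoding RNA. It stood at 74.4 CPM in neonatal lambda and 173 CPM in kappa cells, with 194 and 2375 UMIs, a log2 ratio of -1.22 (-1.44 to -1.01). Among adult cells it stood at 65.5 and 148 CPM, a log2 ratio of -1.18 (-1.40 to -0.96). In lambda-dominant cells it was lower still, at 48.0 CPM at 2 weeks and 57.2 CPM at 8 weeks, with log2 ratios of -1.93 (-2.32 to -1.56) and -1.43 (-1.77 to -1.11). Near-empty droplets held 40.1 and 28.3 CPM. Lambda cells were below kappa cells in each of the 4 bins by UMIs at both ages, for example at 129 against 238 CPM in the lowest and 54.5 against 138 CPM in the highest neonatal bin, with intervals that overlapped in the second adult bin, at 149 (105 to 207) against 192 CPM (179 to 206).

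The annotation places Gm30211 around the kappa constant gene. It runs on the same strand of chromosome 6 from 70719074 to 70740554, beginning 7.36 kb before Igkc and ending 13.6 kb after it, and none of its 4 exons overlaps the Igkc exon. Whether part of its UMIs came from unspliced or extended kappa transcripts was not tested. Genes within 1 Mb of each light chain locus were therefore looked at, a window and a minimum of 10 CPM chosen after this value was seen. The next gene after Igkc in the list was Rpia, an enzyme of the pentose phosphate pathway, whose nearest end lies 38.8 kb beyond Igkc on the opposite strand. It was at 83.3 CPM in neonatal lambda and 105 CPM in kappa cells, a log2 ratio of -0.34 (-0.55 to -0.13), and at 45.9 and 59.8 CPM in the adult library, -0.38 (-0.65 to -0.12). In lambda-dominant cells the Rpia ratios were -0.69 (-1.03 to -0.36) and -0.44 (-0.83 to -0.08). Its values were below 0 in every setting tried, lambda-dominant cells included, from -0.69 to -0.23 at 2 weeks and -0.75 to -0.26 at 8 weeks. By bins of UMIs Rpia was lower in lambda cells in 4 of 4 adult bins and 3 of 4 neonatal bins, and stood at 120 CPM (85.1 to 164) against 98.6 CPM (88.1 to 110) in the third neonatal bin.

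The 6 other genes near Igkc lay between -0.15 and 0.17 at 2 weeks and between -0.26 and 0.08 at 8 weeks, and no interval left out 0. How often intervals left out 0 over all genes compared is not given here, so this count has no baseline. Eif2ak3, the next in order and a kinase of the unfolded protein response, was at -0.11 (-0.33 to 0.11) and -0.04 (-0.29 to 0.20). Near the lambda locus, 13 genes other than immunoglobulin genes and the antisense transcript described next lay between -0.45 and 0.46 at 2 weeks and between -0.30 and 0.53 at 8 weeks. Intervals left out 0 for 0 of them at 2 weeks and 3 at 8 weeks. The 3 went both ways, with Dgcr6 at 0.50 (0.05 to 0.93), Dgcr8 at 0.53 (0.03 to 0.99) and B3gnt5 at -0.14 (-0.28 to -0.003). These counts have no baseline either. The antisense transcript 2010309G21Rik, whose second exon overlaps Iglc3 on the opposite strand, was lower in neonatal lambda cells, with a log2 ratio of -0.59 (-1.09 to -0.13), and at -0.35 (-0.89 to 0.15) in adult lambda cells.

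**Figure D4:**
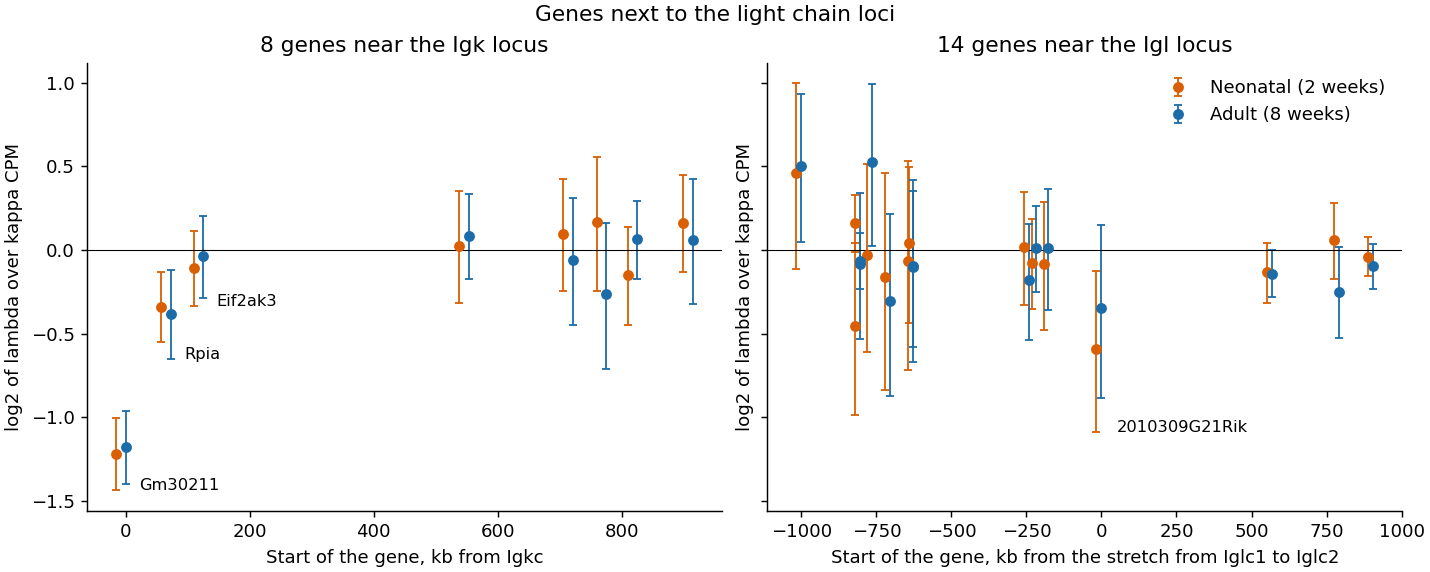
Log2 ratio of lambda over kappa cells (y axis, with exact 95% intervals) for 8 genes within 1 Mb of Igkc (left) and 14 genes within 1 Mb of the stretch from Iglc1 to Iglc2 (right), by the distance of the gene's start in kb (x axis; light chain genes left out). Gm30211 at -1.22 and -1.18 and Rpia at -0.34 and -0.38 stand next to Igkc, the points of the 2 libraries are shifted sideways from each other, and the other 6 genes have intervals that include 0.

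Fcer2a, a gene of mature recirculating B cells, stood lower in lambda cells at both ages when its UMIs were summed over all cells. It was at 132 CPM in neonatal lambda and 179 CPM in kappa cells, a log2 ratio of -0.44 (-0.60 to -0.27), and at 203 and 285 CPM in adult cells, -0.49 (-0.61 to -0.37). Ighd, the constant region of IgD, was at -0.15 (-0.24 to -0.06) and -0.30 (-0.37 to -0.22), while Ighm, that of IgM, was at 0.01 (-0.02 to 0.04) and -0.01 (-0.04 to 0.02). The 8 heavy chain constant genes had these 2 above the minimum, neither past the fold, with medians of -0.07 and -0.15. Of the 6 below it, which encode the switched classes, Ighg2c gave 2 UMIs in adult lambda and 3338 in adult kappa cells, with 98.0% of the latter in 1 cell. Ighg3 gave 1 against 49 UMIs at 2 weeks and 39 against 252 UMIs at 8 weeks, or 14.1 against 7.92 CPM, with 46.2% of the adult lambda UMIs in 1 cell. Igha gave 7 against 22 UMIs and 11 against 290 UMIs, with 45.2% of the adult kappa UMIs in 1 cell. By bins of UMIs, Fcer2a was lower in lambda cells in 4 of 4 adult bins but in 3 of 4 neonatal bins, and in the third neonatal bin lambda cells stood at 273 CPM (219 to 336) against 218 CPM (202 to 235). In neonatal lambda-dominant cells Fcer2a stood at 253 and 275 CPM in the middle bins, against 246 and 234 CPM in cells with at least 4 times as much Igkc, and at 17.6 against 127 CPM in the highest bin. Cr2, the other mature B cell gene of the strata, which was below the minimum, was at 0.12 (-0.25 to 0.48) at 2 weeks and -0.18 (-0.35 to -0.01) at 8 weeks. Averaging over the 4 strata, which Fcer2a itself helped to define, left Fcer2a at -0.29 and -0.18.

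Of the 10 B1 cell genes, 3 were above the minimum. Their median log2 ratio was 0.13 in neonatal and 0.47 in adult cells, against 0.01 and -0.05 over all genes, and 1 was past the fold, upwards in adult cells (0.0427% of all genes compared). That was Ahnak, a large scaffold protein, at 204 against 143 CPM, a log2 ratio of 0.51 (0.38 to 0.64). It was at -0.08 (-0.18 to 0.03) in the neonatal library and at 0.04 (-0.17 to 0.25) in adult lambda-dominant cells. Plac8 was at 1060 against 793 CPM, 0.42 (0.36 to 0.47), and S100a6, a calcium-binding protein, at 861 against 623 CPM, 0.47 (0.41 to 0.53), and both kept their direction in adult lambda-dominant cells, at 0.53 (0.45 to 0.61) and 0.36 (0.27 to 0.44). Averaged over the strata, which these genes define, the adult ratios were 0.15, 0.13 and 0.07. Itgb1, an integrin chain, was at 118 against 87.5 CPM in the adult library, 0.43 (0.26 to 0.60), and the adhesion receptor Cd44 at 83.9 against 64.3 CPM, 0.38 (0.18 to 0.58).

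Among genes that leaned the same way at both ages, Cd24a led the upward ones. Cd24a, a surface protein that falls as B cells mature, was at 367 against 290 CPM at 2 weeks and 337 against 277 CPM at 8 weeks, log2 ratios of 0.34 (0.24 to 0.44) and 0.28 (0.18 to 0.38). The transitional B cell list with Cd24a had 4 of 6 genes above the minimum, none past the fold, and medians of 0.11 and 0.09. Hsp90b1, a chaperone of the endoplasmic reticulum, stood at 0.45 (0.35 to 0.54) and 0.22 (0.14 to 0.31), and Pdia4, a disulfide isomerase there, at 0.41 (0.24 to 0.57) and 0.24 (0.07 to 0.39). Vpreb3, the gene of the surrogate light chain list above the minimum, was at 0.16 (0.06 to 0.25) and -0.16 (-0.30 to -0.02). The other 7 upward genes by the rule were Ifi27, Ech1, Pafah1b3, Asph, Itgb1, Eif3l and Ero1lb, all under 0.5 in both libraries.

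Downwards at both ages, after Gm30211, stood Smad7, an inhibitor of TGF-beta signalling, at 117 against 160 CPM at 2 weeks and 93.0 against 136 CPM at 8 weeks, log2 ratios of -0.45 (-0.62 to -0.27) and -0.55 (-0.73 to -0.36). Plk2, a stress-responsive kinase, was at -0.32 (-0.48 to -0.17) and -0.68 (-0.87 to -0.49), and in lambda-dominant cells at -0.66 (-0.91 to -0.43) and -0.98 (-1.27 to -0.71). Smad7 was lower in lambda cells in each bin by UMIs except the second adult bin (216 against 209 CPM), and Plk2 in each except the second neonatal bin, at 246 CPM (192 to 311) against 215 CPM (197 to 234). Vps37b, H2-DMb1, Pag1, Ms4a4c and Nfkb2 completed the 10 by the rule with Fcer2a and Rpia. The 4 genes downwards past the fold in lambda-dominant cells of both libraries were Gm30211, Plk2, Smad7 and Stmn1, and the 1 upwards was Apoe. Over all lambda and kappa cells Stmn1, a microtubule regulator, was at 0.01 (-0.25 to 0.27) at 2 weeks and -0.36 (-0.64 to -0.10) at 8 weeks. The neonatal difference between lambda-dominant cells and cells with at least 4 times as much Igkc differed by bin, with 40.9 against 45.6 CPM, 42.1 against 32.9 CPM, 18.3 against 34.3 CPM and 64.4 against 153 CPM from the lowest bin up. Of the adult lambda UMIs of Stmn1, 32.5% came from 1 cell.

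**Figure D5:**
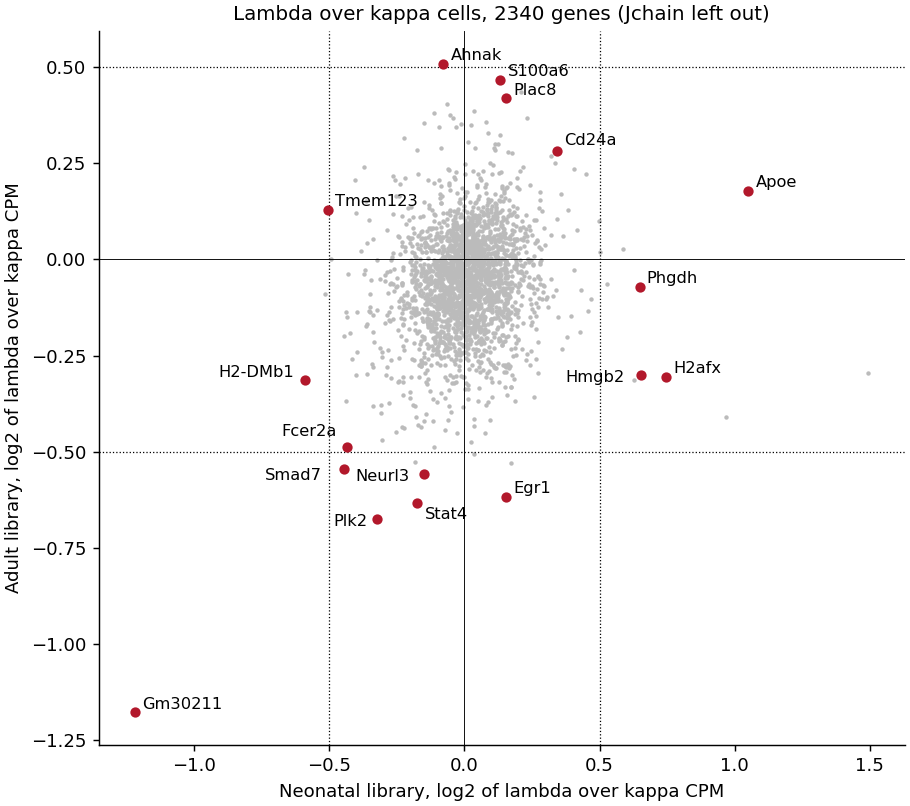
Log2 ratio of lambda over kappa cells in the neonatal (x axis) and adult (y axis) library for 2340 of the 2341 genes with at least 50 CPM (Jchain left out), with dotted lines at -0.5 and 0.5 and named genes in red. Gm30211 stands alone at the lower left at -1.22 and -1.18, and the 2 unnamed points at the right are histone genes with over 20% of their neonatal lambda UMIs in 1 cell.

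In the neonatal library alone, Apoe, which encodes a lipid carrier, was highest by the rule, at 359 against 173 CPM, a log2 ratio of 1.05 (0.94 to 1.16). Among adult cells it was at 321 against 284 CPM, 0.18 (0.08 to 0.28). Most neonatal Apoe UMIs of lambda cells, 842 of 935, came from the 104 cells of the highest bin by UMIs, and 1 cell gave 11.3%. In the 3 lower bins Apoe was lower in lambda than in kappa cells, at 87.1 against 146 CPM, 102 against 122 CPM and 55.2 against 129 CPM, and in the highest it was at 574 against 224 CPM. Lambda-dominant cells had log2 ratios of 1.37 and 0.73, and a mitochondrial limit of 7% gave 0.34 and -0.03 for Apoe. Near-empty droplets held 301 CPM of Apoe at 2 weeks and 432 CPM at 8 weeks. Phgdh, an enzyme of serine synthesis, was at 0.65 (0.48 to 0.82) at 2 weeks and -0.07 (-0.28 to 0.14) at 8 weeks.

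Hmgb2, a chromatin protein of the cell cycle list, was higher in neonatal lambda cells, at 482 against 307 CPM, 0.65 (0.56 to 0.74), but at -0.10 (-0.25 to 0.04) in lambda-dominant cells and at 0.30 without the 5% of cells with most UMIs. H2afx and Hist1h4d stood at 0.75 (0.52 to 0.97) and 0.63 (0.40 to 0.85), but at 0.30 (-0.05 to 0.63) and 0.17 (-0.17 to 0.50) in lambda-dominant cells. The 8 cell cycle genes summed to 805 CPM in neonatal lambda and 517 CPM in kappa cells, and of the lambda UMIs 63.6% came from the 5% of lambda cells with most of them. They summed to 580 CPM in lambda-dominant cells and 1033 CPM in lambda cells below the factor of 4, with kappa cells of at least 4 times as much Igkc at 676 CPM. Among adult cells the sum was 483 CPM in lambda and 589 CPM in kappa cells. The median over the 2 members above the minimum was 0.33 at 2 weeks and -0.33 at 8 weeks, with 1 past the fold upwards in the neonatal library (0.427% of all genes compared).

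Of 10 activation genes, all above the minimum, 2 were past the fold downwards in the adult library and none in the neonatal one (0.384% and 0.214% of all genes compared), and the medians were -0.15 at 8 weeks and -0.05 at 2 weeks. Egr1, a transcription factor induced by receptor signalling, was at 57.9 against 88.8 CPM in adult cells, -0.62 (-0.86 to -0.39), and at 143 against 129 CPM in neonatal cells, 0.16 (-0.01 to 0.32). Egr3 was at -0.53 (-0.81 to -0.26) and 0.17 (-0.01 to 0.35). Stat4 and Neurl3 were also lower in adult lambda cells, at -0.63 (-0.87 to -0.41) and -0.56 (-0.72 to -0.40). In the neonatal library H2-DMb1, a chain that loads peptides on MHC class II, was at -0.59 (-0.89 to -0.30), Fam111a at -0.52 (-0.76 to -0.28) and Tmem123 at -0.51 (-0.67 to -0.34). Cd86, a costimulatory protein, was at -0.49 (-0.70 to -0.30) at 2 weeks and 0.00 (-0.12 to 0.12) at 8 weeks. Bcl2l11, which promotes cell death, was at 0.40 (0.24 to 0.56) in the adult library.

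Genes of light chain recombination were rare. Rag1, a subunit of the recombinase, gave 18 UMIs in neonatal lambda cells, or 6.91 CPM (4.09 to 10.9), and 33 UMIs in kappa cells, or 2.41 CPM (1.66 to 3.38), while near-empty droplets held 2.38 CPM. Among adult cells it gave 5 UMIs in lambda cells, or 1.81 CPM (0.587 to 4.22), and 4 in kappa cells, or 0.126 CPM (0.0342 to 0.322), and near-empty droplets held 0.242 CPM. The Rag1 UMIs lay in few cells, with 27.8% of the neonatal and 40% of the adult lambda UMIs in 1 cell. Rag2, Dntt and Igll1 were at 0 in both classes at both ages. The 13 genes of the recombination and editing list had 10 above the minimum, none past the fold, with medians of 0.03 and -0.10.

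Cd79b, a chain of the B cell receptor, was at a log2 ratio of 0.12 (0.08 to 0.17) at 2 weeks and 0.12 (0.07 to 0.17) at 8 weeks. Survival genes had 6 of 6 above the minimum and medians of 0.03 at 2 weeks and 0.02 at 8 weeks, with 1 past the fold upwards in the neonatal library (0.427% of all genes compared). That was Bcl2a1b, at 0.50 (0.29 to 0.71), and at 0.31 (-0.03 to 0.64) in lambda-dominant cells. Marginal zone genes (3 of 8 above it) were at -0.02 and 0.11, interferon response genes (3 of 8) at -0.13 and 0.01, and genes of anergy (5 of 9) at 0.11 and 0.04, none of them with a member past the fold. Plasma cell genes (4 of 8) were at 0.00 and 0.11, with Jchain, the joining chain of secreted antibody, past the fold downwards in the neonatal library (0.214% of all genes compared). Its 1374 neonatal kappa UMIs came to 56.4% from 1 cell, and its direction turned in 3 settings, to 0.99 without the 5% of cells with most UMIs, 0.35 without cells with markers of other cell types and 0.60 without barcodes shared by the libraries.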

How the data were processed

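Counts of UMIs per gene and droplet were deposited by the authors as unfiltered matrices of 3′ droplet libraries aligned to mm10 (Cell Ranger 3.0.2 per the file headers), unnormalised, with 6794880 barcodes listed per library. Antibody features named in the sample titles held at most 2 UMIs and were not used, and 0 columns of other samples were present.

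Droplets were kept as stated in the report, and lambda and kappa UMIs were summed and divided by the class total. The sort excluded doublets and no doublet caller was run. Exact 95% intervals were Clopper-Pearson (shares), Poisson (levels) or conditional binomial (ratios). For strata, each cell was thinned at random to 2000 UMIs. Near-empty droplets, ranks 45000 to 90000 by UMIs, averaged 55.9 and 92.0 UMIs. Intervals came from scipy 1.17.1, matrices were handled with numpy 2.4.6 and pandas 2.3.3 in Python 3.11.15, figures were drawn with matplotlib 3.10.9 and alignments made with Biopython 1.88, with positions and sequences from GENCODE M21. On simulated counts with log2 changes of 1 and 2 put into 100 genes each, 100% of the changed genes were past the fold in both libraries. Those counts were independent Poisson draws without spread between cells. The result therefore checks the calculation only, and cannot show how often single cells drive a call.

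The members and gene lists were chosen with earlier results of these data known. Beyond the lists, the rule named 10 genes per direction, ranked by the smaller ratio of both libraries among genes of equal sign, and 5 per library and direction, except genes with over 20% of the UMIs of a class in 1 cell. Other histone genes, the genes near the loci and those past the fold in lambda-dominant cells of both libraries were named after their values were seen. Some items, and the lists that hold them, are not reported here. Alternatives covered cell filters, subtracted free light chain RNA, the class rule, thinning, denominators, strata and the expression minimum.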

Additional observations from a re-analysis of the deposited data

How the results depend on the processing

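No paired analysis was possible because each age is 1 library, and there is no replicate to leave out. The share of lambda cells was between 14.9 and 17.2% in the neonatal and between 6.997% (mitochondrial limit of 7%) and 8.62% in the adult library, apart from 9.41% and 5.26% with lambda at least 4 times Igkc. By stratum that set gave 7.66, 7.77, 13.9 and 9.76% of neonatal cells and 7.42, 3.94, 3.31 and 5.89% of adult cells, in the order of the report. With B1 cell genes at 5 UMIs the neonatal share of that stratum was 18.4%. Where the leading constant gene had to hold 80% of the lambda UMIs, Iglc1 led in 68.0% and Iglc2 in 24.2% of the assigned neonatal cells, and Iglc1 in 59.4% and Iglc3 in 3.50% of the adult ones, and Iglc2 led in 29.9% of the neonatal cells with lambda at least 4 times Igkc.

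The counts of genes past the fold, 15 neonatal, 10 adult and 1 in both, moved most. They were 72, 25 and 3 with a mitochondrial limit of 7%, 41, 55 and 5 with 1 light chain at least 4 times the other and the minimum applied anew, and 23, 19 and 3 in male cells. Adult counts were 21 without the 5% of cells with most UMIs, 19 for the mean over cells and 6 averaged over strata, each with 2 genes in both libraries. Leaving out cells with markers of other cell types gave 2 and leaving out shared barcodes 3 genes in both. Thinning gave 47, 81 and 2, a minimum of 200 CPM gave 2, 0 and 0 among 497 genes, and a minimum of 10 CPM gave 199, 189 and 18 among 6652 genes. Neonatal Hmgb2 turned to -0.10 with 1 light chain at least 4 times the other, and neonatal Jchain to 0.99 without the 5% of cells with most UMIs, 0.35 without cells with markers of other cell types and 0.60 without shared barcodes. The causes were not tested. Of 3520 gene ratios under 16 settings, 3168 stayed within their counting interval, 348 left it and 4 past the fold changed sign. Genes with few UMIs are limited by depth, and Gm30211 kept its sign in 17 of 17 settings per library, from -1.93 to -1.11 and from -1.51 to -1.10.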
